A study of Mus musculus with 9 samples.

Results

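The proteasome subunit genes are the mouse genes whose symbols start with Psma, Psmb, Psmc, Psmd, Psme, Psmf or Psmg followed by a number. The symbol rule found 50 genes on 56 probe sets, out of 19937 genes measured by a probe set of their own. Of these 50, 48 encode subunits, activators, inhibitors or assembly factors of the proteasome. The other two, Psmc3ip, a meiotic recombination factor, and Psme3ip1, a nuclear partner of the activator PA28 gamma, match the symbols only and are counted as members but not as subunits. Each gene was read from its brightest probe set. The rule reads symbols only and uses no measured value.

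RNA was measured on 9 arrays of the Affymetrix Mouse Gene 1.0 ST type, 3 for each of 3 groups of sorted CD4 T cells. Naive cells were CD4+ CD44- spleen cells, sorted with a further surface marker and taken at day 29 from mice given a sham treatment. Acute Th2 and chronic Th2 cells were CD4+ CD69+ ST2+ cells from the lung of mice sensitised to ovalbumin, a chicken egg protein used as a model allergen, by injection into the peritoneum of 10 µg ovalbumin with 1.5 mg aluminium hydroxide in 200 µl saline buffer on days 1, 14 and 21. Acute mice then breathed a 1% ovalbumin aerosol on 3 days in a row and were used at day 29, and chronic mice were challenged 2 times a week for 12 weeks and were used at day 104. The cells of all 3 groups, naive cells included, were stimulated through CD3 and CD28 for 8 h after the sort. Tissue, treatment and sorted phenotype change together between naive and Th2 cells. Mouse age changes with them between naive (day 29) and chronic Th2 cells (day 104). Between the Th2 groups, mouse age and length of exposure change together. Within each comparison these cannot be told apart. The titles call the samples of a group biological replicates. Nothing says whether each came from separate animals or a pool, so the p-values measure the spread between these samples.

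The proteasome is the protease that degrades most ubiquitin-tagged proteins of a cell. Its 20S core is a stack of rings, outer alpha rings that form the gate and inner beta rings that hold the active sites, and the 19S particle on its end binds, unfolds and feeds in the substrate. In immune cells and under interferon gamma, the active-site subunits Psmb6, Psmb7 and Psmb5 can be replaced in new particles by Psmb9, Psmb10 and Psmb8, which form the immunoproteasome and favour peptides that fit MHC class I. T cells make more protein as they are activated, and the proteasome is used for signalling through NF-kB and for the cell cycle.

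Among the naive arrays, the first stood apart, and it touches every comparison with naive cells. Il2, which T cell receptor stimulation induces, read 5.07, 11.33 and 11.27 (log2 level) on the naive arrays, so that it was below the array's own 95th percentile of olfactory receptor genes, 6.39, on naive 1. Over 16 genes known to be induced by the T cell receptor, the median log2 level was 8.47 on naive 1 and between 10.40 and 11.09 on the other 8 arrays. Between naive 1 and naive 2, 1786 of all genes differed by more than 1 (log2), against 41 between naive 2 and naive 3. The nearest arrays of one group were acute Th2 2 and 3, with a median absolute difference of 0.09. Cd4, Cd3e, Cd3d, Cd3g, Cd44, Cd69 and Gata3 were above background, taken as 6.53, the 95th percentile of 1015 olfactory receptor genes. Il1rl1 (ST2), a marker of the Th2 sort, had no probe set of its own here. The defining markers of B cells (Ms4a1, Cd79a, Pax5), NK cells, dendritic cells, neutrophils and lung epithelium were not above background, and neither were Cd8a, 6 of 7 macrophage and monocyte markers, the eosinophil genes Epx and Prg2, and Cdh5 and Pdgfra. Cd8b1, Cd79b, Cd68, Siglecf, Pecam1, Col1a1 and Col3a1 were above it. Of these, Cd8b1 (7.89 on naive 1, at most 7.14 elsewhere) and Pecam1 (9.56 on naive 1, 7.08 to 9.27 elsewhere) were highest on naive 1. Pecam1, which T cells can express as well, differed by -1.10 in chronic minus acute Th2 (limma adjusted p = 0.386). Among the 7 T cell and sort genes, 4 were highest on naive 1 too. They were Cd4 (10.81 there, at most 10.35 elsewhere), Cd3e (12.22, at most 11.77), Cd3d (9.40, at most 8.21) and Cd3g (11.58, at most 10.88). The part of all these markers in the proteasome values was not tested.

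The 3 immunoproteasome subunits and the standard subunits they replace are described first. Promoter windows of both are shown for the 2 pairs whose genes are in the sequence table, Psmb8 with Psmb5 and Psmb9 with Psmb6, because they lay at opposite ends of their ranges on naive 1. Each runs 5′ to 3′ from 250 bases before to 50 bases after the gene's start in RefSeq (GRCm38.p6). Capitals mark letters that match 1 of 5 motifs on either strand, TGACNNNGC (core of the antioxidant response element), CCAAT (NF-Y), GGGANTTCC (NF-kB), TGANTCA (AP-1) or the interferon response element.
Psmb8 promoter (chr17:34197945-34198244, plus strand): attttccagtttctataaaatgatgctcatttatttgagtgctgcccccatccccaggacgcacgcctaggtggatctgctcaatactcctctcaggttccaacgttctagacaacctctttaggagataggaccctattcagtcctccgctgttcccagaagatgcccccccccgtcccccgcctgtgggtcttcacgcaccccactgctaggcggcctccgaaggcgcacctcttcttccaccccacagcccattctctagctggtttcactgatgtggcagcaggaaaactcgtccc
Psmb5 promoter (chr14:54617946-54618245, minus strand): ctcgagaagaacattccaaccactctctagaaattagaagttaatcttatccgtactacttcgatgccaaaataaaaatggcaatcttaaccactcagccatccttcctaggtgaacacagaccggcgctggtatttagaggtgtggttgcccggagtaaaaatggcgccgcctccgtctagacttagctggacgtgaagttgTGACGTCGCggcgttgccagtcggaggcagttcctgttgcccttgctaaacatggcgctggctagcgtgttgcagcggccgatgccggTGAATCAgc
Psmb9 promoter (chr17:34187281-34187580, minus strand): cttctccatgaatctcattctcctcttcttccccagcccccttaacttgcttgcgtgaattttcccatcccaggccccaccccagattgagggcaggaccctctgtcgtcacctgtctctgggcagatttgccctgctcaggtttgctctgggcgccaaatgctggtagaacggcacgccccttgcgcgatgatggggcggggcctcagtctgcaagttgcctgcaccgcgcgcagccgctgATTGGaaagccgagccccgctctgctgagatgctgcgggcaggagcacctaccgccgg
Psmb6 promoter (chr11:70525107-70525406, plus strand): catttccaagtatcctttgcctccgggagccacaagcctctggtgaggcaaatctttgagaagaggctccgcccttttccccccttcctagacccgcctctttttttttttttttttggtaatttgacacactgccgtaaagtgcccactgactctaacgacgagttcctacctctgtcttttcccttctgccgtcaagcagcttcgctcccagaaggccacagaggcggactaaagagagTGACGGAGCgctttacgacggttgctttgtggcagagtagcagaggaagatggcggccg

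The Psmb5 and Psmb6 windows each held 1 TGACNNNGC, starting at bases 204 and 242 of the window, and Psmb5 also a TGANTCA at base 292. The Psmb9 window held 1 CCAAT, on the opposite strand at base 243, and the Psmb8 window none of the 5 motifs, which says only that these letters are not in it. Psmb9 and Psmb8 lie on chromosome 17 on either side of Tap1, a peptide transporter gene, and the windows of Psmb9 and Tap1, on opposite strands, share 275 bases. Of the 50 genes, 42 had a window, 46 windows in all. TGACNNNGC was in 13.0% of these and in 12.4% of all 32851 windows of the table, CCAAT in 34.8% and 37.4%, TGANTCA in 4.35% and 7.81%, and GGGANTTCC in 0 of 46 and 1.68%. The interferon response element was in 5 of 46 windows (10.9%), those of Psmb3, Psmd4, Psmd9, Psme1 and Psmg4, and in 3.44% of all windows. TGACNNNGC and TGANTCA can share letters. The matches describe these windows and were not tested for use in the cells.

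Psmb8, the immunoproteasome subunit that replaces Psmb5, read 8.97, 7.48 and 7.13 (log2 level) on the naive arrays, 8.18, 8.37 and 8.37 in acute Th2 and 8.12, 8.49 and 7.87 in chronic Th2. Naive 1 was the highest of all 9 arrays, the other two naive arrays were the lowest, and the Th2 arrays lay between them. The difference from naive was 0.44 ± 0.41 (SE, n = 3 and 3) in acute Th2 (limma adjusted p = 0.725) and 0.29 ± 0.41 in chronic Th2 (limma adjusted p = 0.665). Without naive 1, Psmb8 was higher in acute Th2 by 1.00 (limma adjusted p = 0.00711) and in chronic Th2 by 0.85 (limma adjusted p = 0.0127).

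Psmb9, which replaces Psmb6, read 8.85, 7.97 and 7.67 on the naive arrays, 8.23, 8.13 and 8.14 in acute Th2 and 8.30, 8.59 and 7.89 in chronic Th2. Psmb10, which replaces Psmb7, read 9.28, 7.41 and 7.19 on the naive arrays, 7.27, 7.57 and 7.58 in acute Th2 and 7.14, 7.51 and 7.32 in chronic Th2. Both had their highest value on naive 1, and apart from it the 3 groups overlapped for Psmb10, while the acute Th2 arrays lay above naive 2 and 3 for Psmb9. With all arrays the differences from naive were 0.00 ± 0.29 and 0.09 ± 0.29 for Psmb9 and -0.49 ± 0.47 and -0.64 ± 0.47 for Psmb10 (SE, acute and chronic Th2), none of them called by limma. Without naive 1 they were 0.34 and 0.44 for Psmb9, and 0.17 and 0.02 for Psmb10, and again not called.

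The standard counterparts went the other way on naive 1. Psmb5, the chymotrypsin-like subunit, read 9.08, 10.46 and 10.85 on the naive arrays, 10.78, 11.21 and 11.21 in acute Th2 and 10.84, 10.80 and 10.80 in chronic Th2. Psmb6, the caspase-like subunit, read 7.56, 9.17 and 8.45, then 8.55, 8.68 and 8.66, then 8.00, 8.53 and 8.37 in the same order. Psmb7, the trypsin-like subunit, read 8.30, 8.97 and 8.65, then 9.21, 9.13 and 9.14, then 9.15, 9.37 and 8.94. Naive 1 was the lowest of the 9 arrays for all 3. Psmb7 was higher on every acute Th2 array than on every naive array, by 0.52 ± 0.17 (SE, limma adjusted p = 0.153), and in chronic Th2 by 0.51 ± 0.17 with naive 2 and chronic Th2 3 overlapping (limma adjusted p = 0.111).

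**Figure D1:**
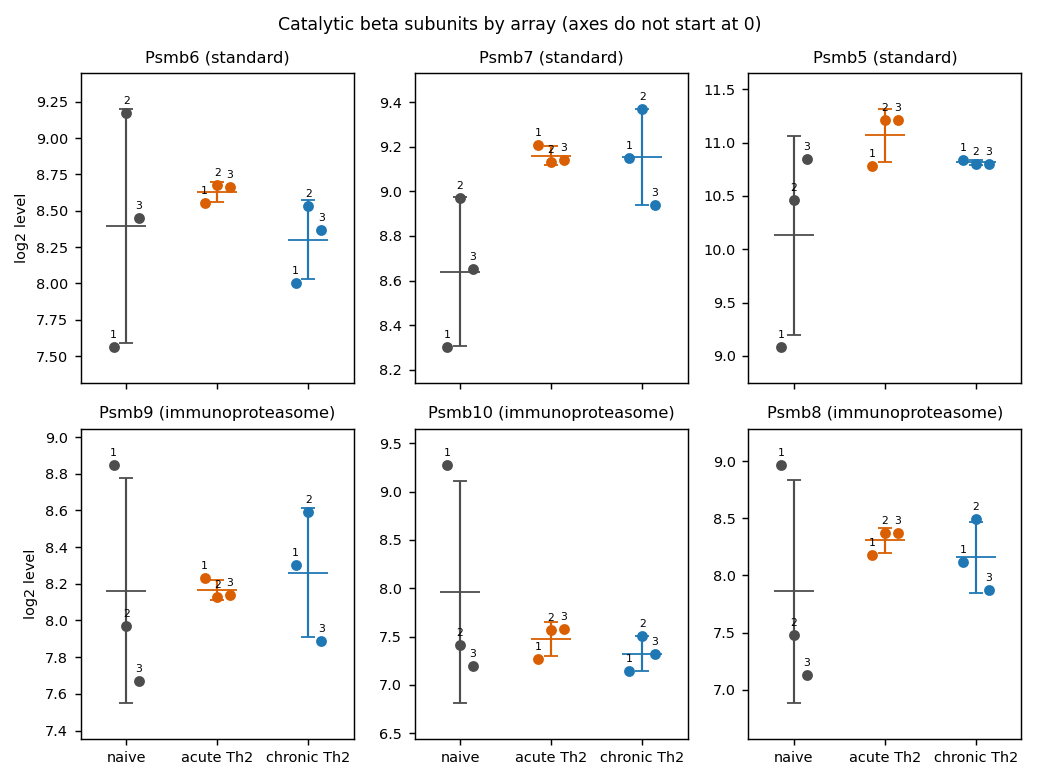
Log2 level (vertical axis) of the 3 standard active-site subunits (top) and the 3 immunoproteasome subunits that replace them (bottom) on each array, numbered within its group on the horizontal axis, with the group mean and SD as bars. Naive 1 is the lowest array for Psmb6, Psmb7 and Psmb5 and the highest for Psmb9, Psmb10 and Psmb8 (for example 9.28 against 7.14 to 7.58 elsewhere for Psmb10).

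The log2 level of an immunoproteasome subunit minus that of its counterpart has no meaning alone, because probe sets differ in response, but can be followed across arrays. For Psmb8 and Psmb5 it was -0.10 on naive 1 and between -3.72 and -2.31 on the other 8 arrays. For Psmb9 and Psmb6 it was 1.29 on naive 1 and between -1.20 and 0.30 elsewhere, and for Psmb10 and Psmb7 0.98 on naive 1 and between -2.01 and -1.46 elsewhere. In all 3 pairs naive 1 lay above the other 8 arrays. Acute and chronic Th2 overlapped in the pairs of Psmb8 (acute -2.76 ± 0.14, chronic -2.66 ± 0.31, SD, n = 3) and Psmb10 (acute -1.69 ± 0.22, chronic -1.83 ± 0.20). In the Psmb9 pair the acute mean was -0.46 ± 0.13 and the chronic mean -0.04 ± 0.40, and chronic Th2 3 (-0.48) lay within the acute range.

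Across the whole module the same array carried most of the spread. Naive 1 was the lowest of the 9 arrays for 33 of the 50 genes, against 21.3% of all genes, and for 28 of the 31 standard subunits of the 26S proteasome (7 alpha, 7 beta, 6 ATPase and 11 non-ATPase subunits). It was the highest for 3 of the 50, Psmb8, Psmb9 and Psmb10, against 17.4% of all genes. The median log2 level of the 31 standard subunits was 8.21, 9.48 and 8.95 on the naive arrays, 9.12, 9.33 and 9.21 in acute Th2, and 8.63, 8.91 and 8.90 in chronic Th2. The median of the immunoproteasome subunits was 8.97, 7.48 and 7.19, then 8.18, 8.13 and 8.14, then 8.12, 8.49 and 7.87. Naive 1 was thus at the low end for the standard subunits and at the high end for the immunoproteasome, and naive 2 was above naive 3 for 26 of the 31. The median SD over the 50 genes was 0.53 in naive, 0.13 in acute Th2 and 0.18 in chronic Th2, where over the 9815 genes above background it was 0.24, 0.12 and 0.14. The low T cell receptor genes of naive 1 lie beside these values, and their part in them was not tested. As these are bulk RNA samples, a change in the share of a cell type and one in RNA per cell cannot be told apart.

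**Figure D2:**
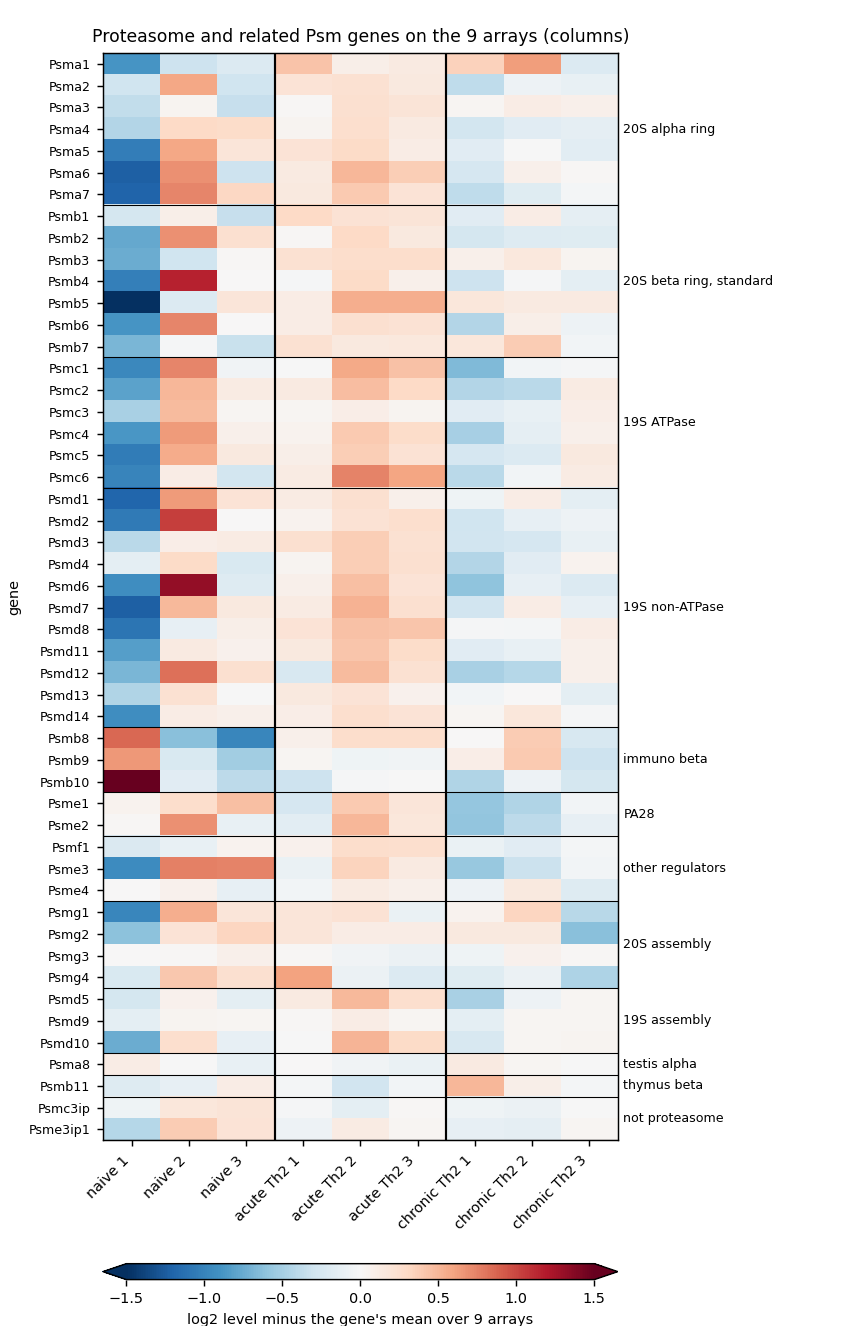
Log2 level of the 50 genes (rows, grouped by role) on the 9 arrays (columns), minus the gene's mean over all arrays, red above and blue below that mean, with colours ending at 1.5 on either side. The naive 1 column is blue for 28 of 31 standard subunits at its lowest value of the row and red for Psmb8, Psmb9 and Psmb10, and the acute Th2 columns are redder than the chronic Th2 columns in the rows of the standard subunits.

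Mean levels of the standard subunits were higher in acute Th2 than in naive cells, but no gene passed the test. The mean difference was above 0 in 31 of 31 standard subunits, with a median of 0.34 (log2), and in 40 of all 50 genes with a median of 0.24. Over all genes the median was -0.03, and 58.1% of them were below 0. None of the 50 was called by limma at an adjusted p under 0.05, where 5.87% of all genes were called. At an unadjusted p under 0.05, 11 of the 50 were higher and 0 lower, against 8.01% and 8.28% of all genes. The arrays of both groups did not overlap for 10 genes, all higher in acute Th2, against 8.8% of all genes higher.

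The beta ring held the lowest p-values. Psmb3, a structural beta subunit, read 11.10, 11.54 and 11.86 on the naive arrays and 12.07, 12.11 and 12.11 in acute Th2, a difference of 0.60 ± 0.16 (SE, limma adjusted p = 0.0815), and its second probe set gave 0.63. Psmb1, also without an active site, read 8.13, 8.48 and 8.04 and then 8.69, 8.61 and 8.59, a difference of 0.41 ± 0.13 (SE, limma adjusted p = 0.128). In both genes every acute Th2 array lay above every naive array. Psmb5 had the largest mean difference, 0.94 ± 0.38 (limma adjusted p = 0.266), with an overlap of naive 3 (10.85) and acute Th2 1 (10.78). These genes, like those below without a call, were picked by their values and are given as a description.

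In the 19S particle all 17 ATPase and non-ATPase genes were above 0 with a median of 0.34. The ATPase Psmc6, part of the ring that unfolds substrates, read 7.76, 8.86 and 8.48 in naive and 8.88, 9.50 and 9.34 in acute Th2, 0.87 ± 0.28 higher on average (SE, limma adjusted p = 0.143). Psmd8, a lid subunit, read 9.46, 10.44 and 10.65 and then 10.76, 11.00 and 10.97, a difference of 0.72 ± 0.26 (limma adjusted p = 0.2). For both, acute Th2 arrays lay above all naive arrays. Others were near naive, among them the lid subunit Psmd12 (0.03 ± 0.36) and the ATPase Psmc3 (0.05 ± 0.21). In the alpha ring, 7 of 7 were above 0, from 0.10 (Psma4) to 0.68 (Psma1).

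The signs rested on naive 1. Without it, the standard subunits split into 15 above and 16 below 0 with a median of 0.00, and the 50 genes into 24 and 26. At an unadjusted p under 0.05, 8 of the 50 were higher (7 of them standard subunits) and 3 lower, against 9.78% and 12.5% of all genes. Then 3 genes were called, 2 higher and 1 lower, against 12.2% of all genes, 6.05% higher and 6.11% lower. They were Psmb8 (above), Psmb3 by 0.40 higher (limma adjusted p = 0.0425) and Psme3 by 0.63 lower on the log2 scale (-0.63, limma adjusted p = 0.0433). Of the T cell receptor induced genes, 0 of 16 were called with all arrays, while 3 rose and 7 fell in acute Th2 without naive 1, so that these arrays differ in that list as well. Its part in the proteasome values was not tested.

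**Figure D3:**
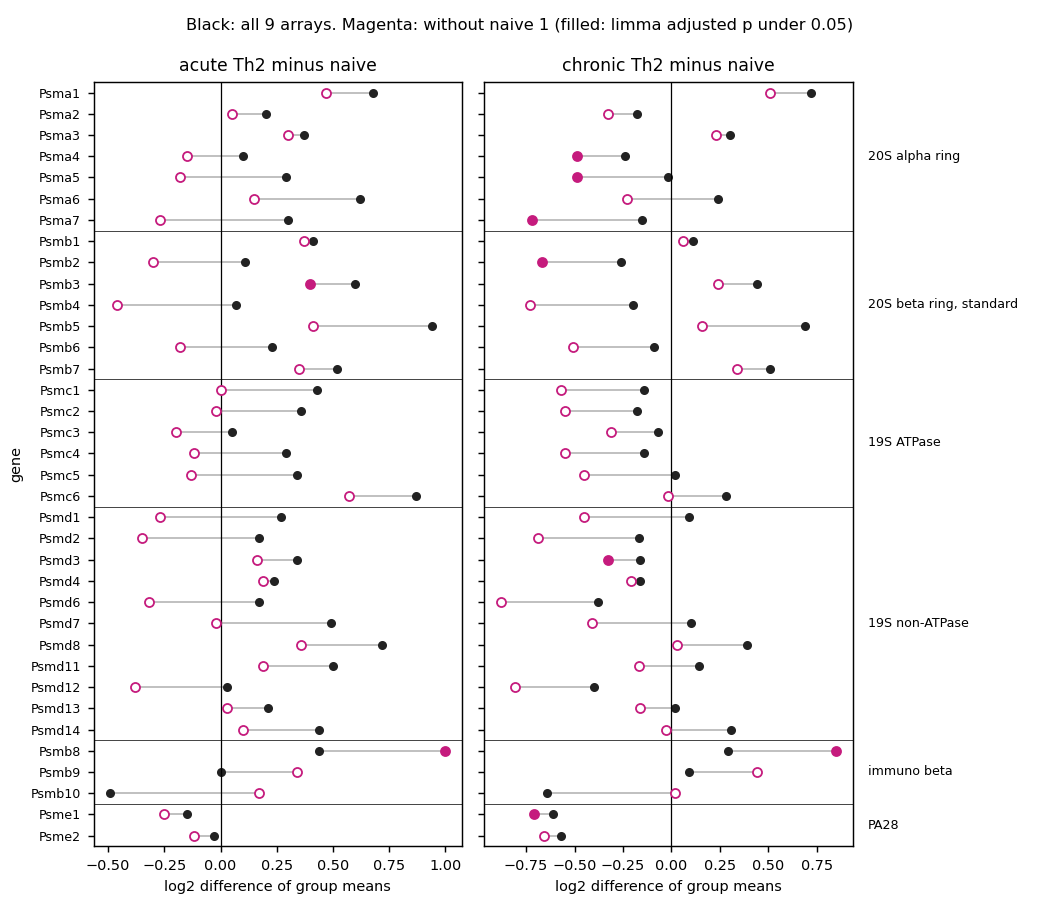
Log2 difference from naive (horizontal axes) of the 31 standard subunits, the immunoproteasome and PA28 genes (rows) in acute (left) and chronic Th2 (right), in black with all 9 arrays and in magenta without naive 1, filled where limma's adjusted p was under 0.05. Leaving out naive 1 moves the standard subunits to the left (median 0.34 to 0.00 in acute Th2) and the 3 immunoproteasome genes to the right.

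Chronic Th2 cells lay close to the mean of the naive cells for the standard subunits with all arrays, and below naive 2 and 3. Of 31 standard subunits, 15 were above 0 and 16 below with a median of -0.02. Of the 50 genes, 21 were above and 29 below with a median of -0.03, against 0.04 over all genes and -0.12 over the 9815 genes above background. The small median of the 50 has no settled sign. It became 0.08 after quantile normalization and -0.09 with each array centred on its median. Without naive 2 it was 0.19, with 38 of the 50 above 0, and without naive 1 it was -0.27, with 38 below. Naive 2 was the highest of the 9 arrays for 22 of the 50 genes. No gene of the 50 was called by limma, against 7.88% of all genes. At an unadjusted p under 0.05, 4 were higher (Psma1, Psmb7, Psmb3 and Psma3) and 2 lower (Psme1 and Psme2), against 12.8% of all genes in either direction. The arrays did not overlap for 2 genes higher, Psma1 and Psmb3, and 2 lower, Psme1 and Psme2, against 15.6% and 12.3% of all genes. For Psma1, naive 3 and chronic Th2 3 were equal to 2 decimals at 9.58, where the groups meet. Acute and chronic Th2 are compared with the same 3 naive arrays, so their differences from naive are not independent.

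PA28 alpha and beta, encoded by Psme1 and Psme2, form the interferon-inducible cap that opens the 20S gate. Psme1 read 10.04, 10.25 and 10.44 in naive, 9.74, 10.38 and 10.17 in acute Th2 and 9.41, 9.54 and 9.95 in chronic Th2. Psme2 read 9.70, 10.37 and 9.58 in naive, 9.53, 10.19 and 9.86 in acute Th2 and 9.10, 9.29 and 9.56 in chronic Th2. For both, all chronic Th2 arrays lay below all naive arrays, by -0.61 ± 0.20 (SE, limma adjusted p = 0.103) for Psme1 and by -0.57 ± 0.24 (limma adjusted p = 0.183) for Psme2, and naive and acute Th2 overlapped. A further probe set that names both Psme2 and its near-copy Psme2b was not used, and the Psme2 probe set may also bind that copy.

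Without naive 1, 9 of the 50 genes (18%) were called in chronic Th2, near the share of all genes, 17.2%. Of the 9, 1 was higher (Psmb8, against 5.84% of all genes) and 8 were lower (against 11.4%). Among the 9815 genes above background, 875 were called higher and 2076 lower in the same fit. The largest difference of the 9 was that of Psme3, which encodes the nuclear activator PA28 gamma and fell by 1.07 on the log2 scale (-1.07, limma adjusted p = 0.00303). Psme3 read 9.52, 11.22 and 11.21 in naive, 10.36, 10.80 and 10.60 in acute Th2 and 9.89, 10.14 and 10.42 in chronic Th2, so that naive 2 and 3 were the highest arrays and naive 1 the lowest. The alpha ring, which forms the gate, gave 3 more, Psma7 (-0.72, limma adjusted p = 0.0128), Psma4 (-0.49, limma adjusted p = 0.00897) and Psma5 (-0.49, limma adjusted p = 0.029). Psma7 read 7.23, 9.16 and 8.74 in naive and 8.04, 8.25 and 8.40 in chronic Th2, where naive 1 lay below and the other two naive arrays above all chronic arrays. Psma4 read 8.64, 9.38 and 9.35 in naive and 8.80, 8.91 and 8.94 in chronic Th2, and Psma5 6.82, 8.43 and 8.04 in naive and 7.69, 7.85 and 7.70 in chronic Th2. The others were Psmb2 (-0.67, limma adjusted p = 0.0106), Psmd3 (-0.33, limma adjusted p = 0.0393), Psme1 (-0.71, limma adjusted p = 0.0475) and the PA28 gamma partner Psme3ip1 (-0.37, limma adjusted p = 0.0429). Psmb2, a beta subunit without an active site, read 9.70, 11.15 and 10.71 in naive and at most 10.29 in chronic Th2. Of the standard subunits, 7 were then above and 24 below 0 with a median of -0.33. Of the T cell receptor induced genes, 3 were higher and 9 lower in chronic Th2 without naive 1, and their part was not tested.

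Between the Th2 groups, whose means do not involve the naive arrays, mean levels of most proteasome genes were lower in chronic Th2, by a small amount and with no gene called. The difference of chronic minus acute Th2 was below 0 in 30 of 31 standard subunits, all but Psma1, with a median of -0.34, and in 44 of all 50 genes with a median of -0.31. Over all genes the median was 0.04 and 42.4% were below 0. Among the 9815 genes above background the median was -0.11 and 68.5% were below 0. None of the 50 passed limma's adjusted p under 0.05, where 0.0301% of all genes, 6 in number, did, and without naive 1 again none did, against 0.0602% of all genes. Of the 50, 6 were lower and 0 higher at an unadjusted p under 0.05, against 4.8% and 10.1% of all genes. The test pools its variance over all 3 groups, naive 1 included, and without naive 1 the count was 19 lower and 0 higher, against 10.4% and 11.5% of all genes. Genes above background leaned the same way as the 50. Of those 9815 genes, 835 were lower and 434 higher with all arrays, and 1901 and 518 without naive 1. The arrays did not overlap for 21 of the 50 genes, all lower in chronic Th2 and 19 of them standard subunits, against 10.8% of all genes lower and 20.1% of the genes above background.

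In the 19S particle 17 of 17 genes were below 0 with a median of -0.39. Psmd3, a lid scaffold subunit, read 7.85, 8.36 and 8.38 in naive, 8.50, 8.62 and 8.48 in acute and 7.97, 8.01 and 8.14 in chronic Th2, a difference of -0.49 ± 0.14 (SE, limma adjusted p = 0.322), and every chronic array was below every acute array. Psmc6 read 8.88, 9.50 and 9.34 and then 8.35, 8.71 and 8.88, equal to 2 decimals at 8.88 where the groups meet, with a difference of -0.59 ± 0.28 (limma adjusted p = 0.352). Psmd5, a chaperone of 19S base assembly, read 7.99, 8.34 and 8.10 and then 7.36, 7.77 and 7.88, a difference of -0.47 ± 0.16 (limma adjusted p = 0.322), and again without overlap. In the alpha ring 6 of 7 were below 0, from -0.07 (Psma3) to -0.45 (Psma7), and in the standard beta ring 7 of 7, from -0.01 (Psmb7) to -0.37 (Psmb2).

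The regulators were below 0 as well. Psmf1, the proteasome inhibitor PI31, read 9.27, 9.47 and 9.46 in acute and 9.10, 9.03 and 9.17 in chronic Th2, -0.30 ± 0.10 (SE, limma adjusted p = 0.322) without overlap, and its naive values of 8.99, 9.09 and 9.26 overlapped the chronic range. Psme1 differed by -0.46 ± 0.20 (limma adjusted p = 0.336) and Psme2 by -0.54 ± 0.24 (limma adjusted p = 0.338), with overlapping arrays. Psme4, the activator PA200, differed by -0.09 ± 0.11. The differences of the immunoproteasome subunits were -0.15 ± 0.41 for Psmb8, 0.09 ± 0.29 for Psmb9 and -0.15 ± 0.47 for Psmb10 (SE), and their 95% intervals reached from -1.22 to 0.92 at the widest. These errors include the spread of naive 1 through the pooled variance, and without it they were 0.16, 0.17 and 0.13. Whether they differ from the standard subunits was not tested.

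**Figure D4:**
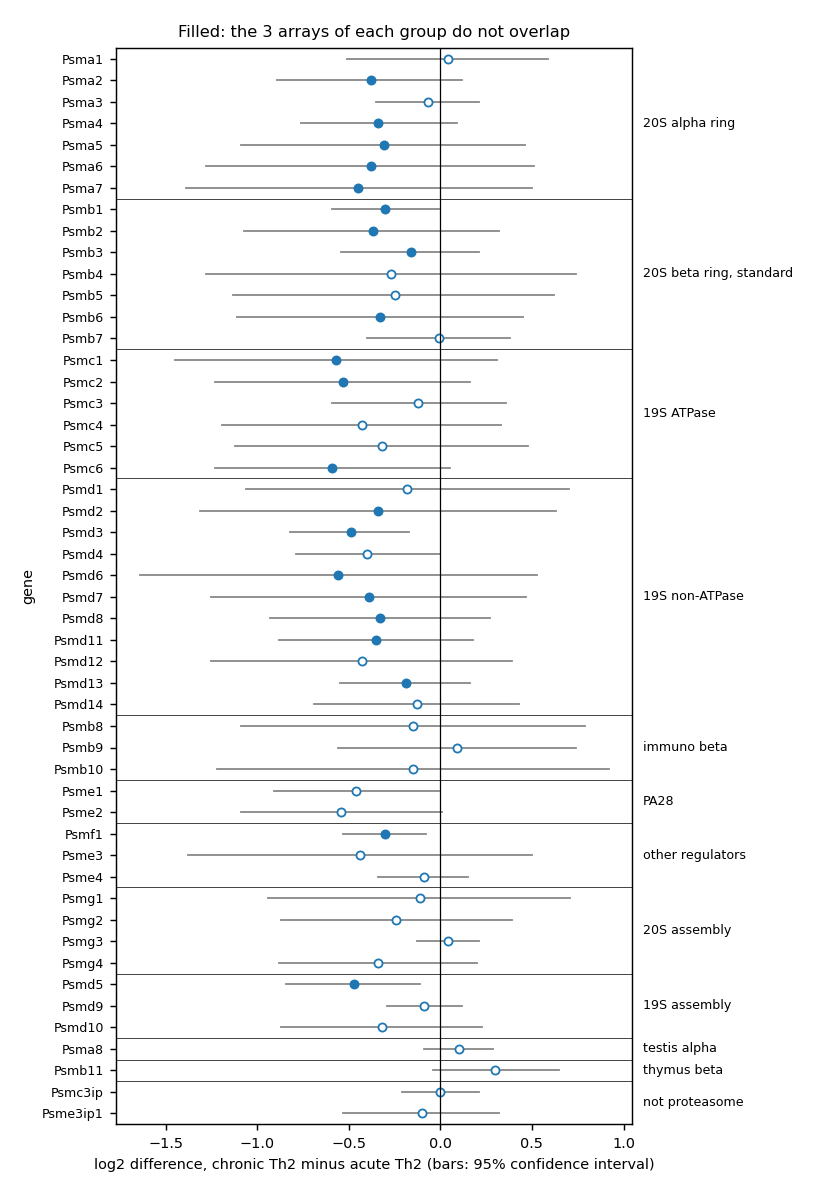
Log2 difference of chronic minus acute Th2 (horizontal axis) for the 50 genes (rows, by role), with 95% confidence intervals from limma as bars, filled where the 3 arrays of each group do not overlap. Points of 44 genes lie left of 0, and most intervals include 0.

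Signs of stimulation and of background moved with these groups too. The median of the T cell receptor induced genes was 10.86, 11.00 and 11.00 on the acute and 10.40, 10.45 and 10.92 on the chronic arrays. Olfactory receptor genes, taken as background, had medians between 4.98 and 5.21 on the acute arrays and of 5.67, 5.51 and 5.15 on the chronic arrays. Chronic Th2 3 was the nearest of the chronic arrays to the acute ones in both, and its standard subunits had a median of 8.90, next to 8.91 on chronic Th2 2. By role the chronic arrays ranked differently. The 19S ATPase (7.94, 8.27 and 8.39) and PA28 medians (9.25, 9.42 and 9.76) were highest on chronic Th2 3. Those of the standard beta ring (9.27, 9.57 and 9.44) and the 19S non-ATPase genes (8.73, 9.13 and 8.90) were highest on chronic Th2 2. The part of either in the proteasome values was not tested. Without naive 1 and chronic Th2 3, limma called 2 of the 50 genes (4%), against 5.45% of all genes, Psmc2 (-0.72, limma adjusted p = 0.0359) and Psmd3 (-0.55, limma adjusted p = 0.0242). Psmc2, an ATPase, read 7.15, 8.45 and 8.08 in naive, 8.09, 8.41 and 8.25 in acute and 7.51, 7.55 and 8.08 in chronic Th2.

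The remaining members were assembly factors and tissue forms. The 20S assembly chaperones Psmg1 to Psmg4 had a median difference of 0.06 in acute and -0.06 in chronic Th2 from naive, and none of the 4 had an unadjusted p under 0.05. Psmg1 read 7.36, 8.89 and 8.52 in naive, 8.52, 8.56 and 8.24 in acute and 8.39, 8.66 and 7.92 in chronic Th2, with naive 1 the lowest. Psmg3 differed by at most 0.08 in size from naive. The testis alpha subunit Psma8, the thymoproteasome subunit Psmb11, found in thymic cortical epithelium, and Psmc3ip were the 3 members whose mean was not above background, between 5.04 and 6.66 on all arrays. Psme3ip1 read 7.96, 8.77 and 8.59 in naive, 8.31, 8.51 and 8.42 in acute and 8.26, 8.25 and 8.42 in chronic Th2.

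Other genes work with the proteasome. Of 20 listed partners outside the symbol rule, 15 were measured, and their differences of chronic minus acute Th2 were below 0 in 15 of 15 with a median of -0.35 and none called, where 68.5% of the genes above background were below 0. In chronic minus naive 13 of 15 were below 0 (median -0.26), and in acute minus naive 5 of 15 (median 0.15). Of the genes above background, 62.3% and 56.7% were below 0 in these comparisons. Without naive 1 the partner medians were -0.44 and -0.11. Ubqln4, which shuttles ubiquitin-tagged proteins to the proteasome, was the only partner called against naive with all arrays, lower in chronic Th2 by -0.89 (limma adjusted p = 0.0439). It read 8.06, 8.95 and 8.92 in naive, 8.00, 8.17 and 8.03 in acute and 7.61, 7.81 and 7.84 in chronic Th2. Without naive 1, 1 of the 15 partners was called lower in acute and 6 in chronic Th2, against 6.11% and 11.4% of all genes. Pomp, the chaperone of beta ring assembly, read 7.37, 8.69 and 8.71 in naive, 8.82, 8.94 and 8.96 in acute and 8.61, 8.55 and 8.47 in chronic Th2, again lowest on naive 1 and not called. Of the list of transcription regulators of proteasome genes and p97 cofactors, 10 of 12 were measured, none was called with all arrays, and 10 of 10 were below 0 in chronic minus acute Th2. Without naive 1, 1 of the 10 was called higher in acute and 1 lower in chronic Th2, against 6.05% and 11.4% of all genes. Nfe2l1, the factor that induces subunit genes when the proteasome is short, was at 7.78 on naive 1 and averaged 8.51 ± 0.64 in naive, 8.94 ± 0.15 in acute and 8.60 ± 0.12 in chronic Th2 (SD, n = 3). Vcp, the p97 unfoldase, read 8.34, 10.17 and 9.58, then 9.76, 9.94 and 9.82, then 9.42, 9.50 and 9.61. Of 6 ubiquitin and E1 genes only Uba6 was measured, with 0.37 and 0.03 against naive and no call with all arrays. Without naive 1, Uba6 was lower in chronic Th2 (-0.33, limma adjusted p = 0.045).

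Interferon gamma and MHC class I genes are given beside the immunoproteasome, which they are known to be induced with. Ifng itself rose in acute (limma adjusted p = 0.000194) and chronic Th2 (limma adjusted p = 0.000344), and read 5.67, 6.09 and 6.29 in naive against 7.70 to 8.21 on the Th2 arrays. The naive values are under the background of 6.53, so that the rise is given as a lower bound against that level, at least 1.46 and 1.27 (log2). Irf8, an interferon-responsive transcription factor, rose by 1.39 (limma adjusted p = 0.0126) and 1.36 (limma adjusted p = 0.0131). Socs1, a feedback inhibitor of the pathway, rose in chronic Th2 by 0.53 (limma adjusted p = 0.0357). These 3 were the only ones called with all arrays among 9 measured of the pathway's 10. That is 2 higher in acute and 3 in chronic Th2, against 3.67% and 3.68% of all genes. Without naive 1, 3 of the 9 were called higher and 0 lower in acute Th2, against 6.05% and 6.11% of all genes. In chronic Th2, 4 were then higher and 1 lower, against 5.84% and 11.4%. Irf1, which binds interferon response elements, read 9.91, 8.95 and 8.40 in naive and 8.40 to 8.91 on the Th2 arrays, and like Ifngr1, Ifngr2, Jak1 and Irf9 was highest on naive 1. Ifng, Irf8 and Jak2 (8.59 on naive 1, 10.62 to 11.31 elsewhere) were lowest there. Of 10 measured MHC class I genes, Erap1, which trims peptides, fell in chronic Th2 by 0.77 on the log2 scale (-0.77, limma adjusted p = 0.0142) and no other was called with all arrays. Tap1, next to Psmb9, read 9.56, 8.97 and 8.67 in naive, 9.32, 9.58 and 9.57 in acute and 9.53, 9.86 and 9.47 in chronic Th2. Like Psmb8, Tap1 was called without naive 1 but not with all arrays, higher by 0.67 (limma adjusted p = 0.0194) and 0.80 (limma adjusted p = 0.0069). Pdia3, a chaperone of the same list, was then lower (-0.63, limma adjusted p = 0.0101, and -0.64, limma adjusted p = 0.00808). In that fit 1 of the 10 was higher and 1 lower in acute Th2, against 6.05% and 6.11% of all genes. In chronic Th2, 2 were higher and 3 lower, against 5.84% and 11.4%.

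For 5 genes with more than 1 probe set, the probe sets gave the same signs with all arrays but not always the same sizes. The 2 probe sets of Psmb3, of Psmc1 and of Psmd2 differed by at most 0.09 in acute minus naive. The 3 of Psma3 gave 0.37, 0.30 and 0.30. Those of Psma5 gave 0.29 and 0.22 in acute minus naive but -0.02 and -0.37 in chronic minus naive and -0.31 and -0.59 in chronic minus acute Th2. In chronic minus acute Th2 those of Psma3 gave -0.07, -0.04 and -0.20 and those of Psmd2 -0.34 and -0.21. Such probe sets can also bind near-identical copies elsewhere in the genome, so the levels of these 5 genes are less certain.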

How the data were processed

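The authors deposited 1 log2 intensity per probe set and array, and the submitters' processing notes name RMA and limma, both with versions not given in the sources used here. RMA brings arrays towards one distribution, so a change shared by most genes may not be seen. Array-wide differences were not fully removed. Over the genes tested, array medians ran from 6.43 (acute Th2 2) to 6.56 (chronic Th2 1). Of 34760 probe sets, 21640 name 1 gene in the platform annotation and 1321 name several and were not used. The brightest probe set stood for its gene, which left 19937 genes, and dim genes were kept.

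Groups were compared with limma 3.58.1 in R 4.3.3 in a two-sided moderated test of 1 model with 3 groups and 9 arrays, whose script was first tested on simulated data. Benjamini-Hochberg adjustment ran over all 19937 genes, and called means an adjusted p under 0.05. Errors of differences are limma's SE, in log2 units. Each group has 3 arrays, which limits precision, and a two-sided exact permutation of 3 against 3 cannot go below 0.1. The members, roles and gene lists were chosen with earlier results of these data known. All members are accounted for, and a further marker of the naive sort is not reported here. Per-array values of the groups compared are given for members called without naive 1, with only the highest chronic value for Psmb2. They are also given for the immunoproteasome subunits with their counterparts and for PA28. Not all members called only in other fits have them, among them Psma1 and Psma3. Other members were picked for mention after their values were seen. Up to 4 called genes or 2 uncalled ones come from each list, with Irf1, Tap1, Pdia3 and Uba6 added in the same way. Alternatives were other normalizations, probe set choices, filters, variance priors, weights, a replicate block and leaving out arrays. Promoter windows are from RefSeq (GRCm38.p6) and were matched by symbol.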

Additional observations from a re-analysis of the deposited data

How the results depend on the processing

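Leaving out each array in turn gave 0 to 3 called genes of the 50 in acute minus naive, 0 to 9 in chronic minus naive and 0 in chronic minus acute Th2. In acute minus naive the count was 3 without naive 1, 3 without naive 2 (Psma3, Psmb1 and Psmb7, all higher) and 1 without naive 3 (Psmb3). These are 6%, 6% and 2% of the 50, against 12.2%, 4.78% and 5.34% of all genes. In chronic minus naive the count was 9, 2 and 1, and 1 without chronic Th2 3 (Psma1). These are 18%, 4%, 2% and 2%, against 17.2%, 5.22%, 6.92% and 10.3% of all genes. Without naive 1 and chronic Th2 3 the counts were 3, 15 (4 higher, 11 lower) and 2, or 6%, 30% and 4% of the 50 against 13.2%, 23.4% and 5.45% of all genes. Array weights estimated by limma gave 9 (all higher), 9 (3 higher, 6 lower) and 14 (all lower), or 18%, 18% and 28% of the 50 against 20.2%, 23.4% and 33.7% of all genes, with weights from 0.165 for naive 1 to 8.23 for acute Th2 3. Quantile normalization gave 1 in chronic minus naive (Psmb7, 0.67), or 2% against 7.02% of all genes. A replicate block on the number in the titles gave 1 in acute minus naive (Psmc6, 0.87, limma adjusted p = 0.0161), 1 in chronic minus naive (Psme1, -0.61, limma adjusted p = 0.0347) and 0 in chronic minus acute Th2. The first 2 of these counts are 2% each, against 6.32% and 9.25% of all genes. Of 9 pairs of arrays with the same number, 5 had correlated deviations over 0.1 (r from -0.09 to 0.57), and 6 of 9 arrays correlated best with their own number. The block was kept as an alternative because no label says that a number marks a shared animal or day. Whether the number marks a pairing is not known. Centring, the filter, the probe set choices, trend and robust priors and fits on 6 arrays gave 0 in all 3 comparisons.

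Among the 8 genes of the exchange pairs and PA28, differences changed sign in 28 cases against 408 that kept sign and call and 20 that became called. None of the 28 was called. Leaving out arrays moved Psmb6 from -0.18 to 0.62 (acute minus naive) and -0.51 to 0.29 (chronic minus naive), Psmb10 from -0.87 to 0.17 and -1.02 to 0.02, Psmb9 from -0.25 to 0.34 and -0.15 to 0.44 and in chronic minus acute from -0.07 to 0.28, Psmb8 in chronic minus naive from -0.07 to 0.85, Psme1 and Psme2 in acute minus naive from -0.29 to 0.03 and -0.19 to 0.22, and Psmb7 in chronic minus acute from -0.12 to 0.10. Without naive 1 and chronic Th2 3, and with array weights, Psmb10 gave 0.17 and 0.02 against naive, and Psmb7 0.10 and 0.11 in chronic minus acute. The former also gave -0.18 and -0.55 for Psmb6 against naive, the weights 0.02 for Psme2 in acute minus naive, and quantile normalization 0.07 for Psmb6 in chronic minus naive and 0.11 for Psmb7 in chronic minus acute. The cause was not tested.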
